A study of Arabidopsis thaliana with 11 samples.

Results

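The genes described here are the 46 Arabidopsis thaliana genes whose allele-assigned endosperm transcripts came mostly from the paternal Col allele in every wild-type library. They were chosen by rule from 32005 gene rows held in the tables of both experiments. A gene had to lie outside a deposited list of genes named for Col and nrpd1, which left 27027 genes. It also needed at least 20 allele-assigned counts in each of the 5 wild-type libraries, which left 4381 genes, and a maternal share of at most 40% in each of them. The maternal share is Ler divided by Ler plus Col, in percent of the counts that could be placed on an allele. The 46 genes are 1.05% of the 4381. Because wild-type shares chose the genes, those shares are given as a description and no test is made of them.

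The study measured mRNA in hand-dissected endosperm in 11 libraries, with a Ler mother and a Col father throughout. Experiment 1 held wild type (Ler by Col, 2 libraries) and homozygous nrpd1 (nrpd1a-4 in Ler by nrpd1a-4 in Col, 3 libraries), all at 6 days after pollination. Experiment 2 held wild type (Ler by Col, 3 libraries) and paternal nrpd1 (a wild-type Ler mother with a nrpd1a-4 Col father, 3 libraries), at 6 to 7 days after pollination. Seeds from crosses among several plants went into each library, and the kit and read length differed between experiments, so a mutant was set only against wild type from the same experiment. All groups share the direction of the cross, so paternal origin and the Col strain cannot be told apart in any value below. Whether Ler reads of these genes were lost in alignment or allele assignment was not tested either.

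Endosperm is the seed tissue that nourishes the embryo, and it holds 2 maternal genomes and 1 paternal genome. A gene expressed equally from every copy therefore has a maternal share of 66.67%. Imprinted genes depart from this because the parents' copies carry different chromatin marks, and paternally expressed imprinted genes are known from endosperm in particular. RNA polymerase IV, whose largest subunit is encoded by NRPD1, transcribes transposons and repeats into precursors of small RNAs, and these guide new DNA methylation to the same sequences.

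Total counts ranged from 15926510 to 20817788 per library in experiment 1 and from 24845721 to 35629462 in experiment 2, and the 46 genes held 16413 to 28189 allele-assigned counts in each. NRPD1 itself was at 20.6 to 31.0 CPM (counts scaled by the library's total) in homozygous nrpd1, below the 39.7 to 48.7 CPM of its wild type. It was at 1.34 to 5.84 CPM in paternal nrpd1, below the 6.63 to 13.2 CPM of its wild type. NRPD1 is on the deposited list. It had 0 Ler counts in each homozygous library, against 105 and 109 in its wild type, beside 191, 136 and 268 Col counts. Whether the mutant Ler mother carries Col sequence there was not tested. In paternal nrpd1 its Col counts were 9, 1 and 11, against 10, 36 and 15 in wild type. Its Ler counts were 20, 1 and 10, against 10, 33 and 27. As raw counts both alleles overlapped. Scaled by each library's total, Col was lower in every paternal nrpd1 library than in any wild-type library, and Ler overlapped. The nearest libraries held 11 and 10 Col counts, so this is a weak check of the paternal label. Markers of the seed coat, a maternal tissue next to the endosperm, were present. The 9 of 10 that could be matched summed to 800 to 818 CPM in wild type of experiment 1, 781 to 1183 CPM in homozygous nrpd1, 276 to 416 CPM in wild type of experiment 2 and 150 to 743 CPM in paternal nrpd1. They did not move together in experiment 1. BAN was at 22.3 and 13.2 CPM in wild type, against 219, 157 and 89.7 CPM in homozygous nrpd1. TT10 was also higher in every homozygous library, and AHA10 was lower in every one. MUM4, at 443 and 413 CPM against 414, 294 and 295 CPM, overlapped narrowly, and the rest overlapped. Of 9 embryo markers, WOX9 and ATML1 made up most of the summed level in experiment 1. In experiment 2 WOX9 did so alone, with ATML1 at 3.21 to 10.4 CPM, and CUC2 had 0 counts in every library. Of 10 endosperm markers ALE1 and ZOU were the highest in experiment 1 while MINI3 had 1 count in all 11 libraries. Over all genes, the median maternal share per library lay at 66.9% and 67.2% in wild type of experiment 1, at 68.8% to 75.9% in homozygous nrpd1, at 66.67% to 66.98% in wild type of experiment 2 and at 67.3% to 68.9% in paternal nrpd1. In bulk tissue, fewer cells of a type and less RNA per cell cannot be told apart. Replicates are separate samples per the labels, so p-values measure the spread between such samples.

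The windows below are shown for 3 genes that the results turn on, each 250 bases that end at the base before the annotated start (RefSeq annotation of TAIR10.1, 5′ to 3′ on the gene's strand, with CG dinucleotides in capitals because CG is the context in which methylation is copied at replication). HDG3, at chr2:13740628-13740877 on the plus strand, is shown as the known imprinted gene, AT4G10490, at chr4:6483617-6483866 on the plus strand, as the gene whose maternal counts differed most in homozygous nrpd1, and FLC, at chr5:3179449-3179698 on the minus strand, as a gene with more CG.
HDG3: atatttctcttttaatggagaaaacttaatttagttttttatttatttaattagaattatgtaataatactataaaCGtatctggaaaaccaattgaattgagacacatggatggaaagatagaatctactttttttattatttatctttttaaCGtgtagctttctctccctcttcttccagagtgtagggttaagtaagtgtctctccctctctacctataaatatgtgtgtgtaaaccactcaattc
AT4G10490: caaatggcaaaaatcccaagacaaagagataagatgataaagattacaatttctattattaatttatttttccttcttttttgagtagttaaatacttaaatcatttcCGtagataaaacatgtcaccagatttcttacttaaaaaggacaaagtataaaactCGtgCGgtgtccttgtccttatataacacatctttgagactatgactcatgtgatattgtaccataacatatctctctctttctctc
FLC: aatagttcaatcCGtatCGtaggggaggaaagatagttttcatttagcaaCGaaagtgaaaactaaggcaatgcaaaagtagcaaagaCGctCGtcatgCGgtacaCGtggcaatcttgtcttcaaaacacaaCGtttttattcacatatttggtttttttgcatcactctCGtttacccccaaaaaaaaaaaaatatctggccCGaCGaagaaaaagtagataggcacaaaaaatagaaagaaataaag
Counted over both strands, so that each capitalised CG holds 2 cytosines, HDG3 and AT4G10490 had 4 and 6 cytosines in CG context and FLC 22, against a median of 11 over the 46 genes and 10 over the other 4335 eligible genes. Those in CHH context, the context that RNA-directed methylation adds to (H is A, C or T), numbered 64, 65 and 64, against a median of 58 in both sets. Those in CHG context numbered 4, 4 and 5, against medians of 8 and 9. The FLC window overlaps another annotated gene, AT5G01675, while the windows of HDG3 and AT4G10490 overlap none. These are counts of letters, and methylation was not measured in these files.

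Across the 46 genes, the maternal share pooled over the 5 wild-type libraries was under 5% for 8 genes, under 10% for 12, under 20% for 23 and under 30% for 38. By annotated product, 5 encode regulators of transcription, chromatin or telomeres, 6 act in RNA processing or protein synthesis, 5 in protein turnover and 6 at the cell wall or outside the cell. Another 5 are oxygenases or other enzymes of hormones and lipids, and CYP77A5P among them is annotated as a pseudogene. A further 8 belong to the plastid, the mitochondrion or primary metabolism, 4 act in trafficking or signalling, 2 are RNAs without a protein and 5 have no known function. These groups were made after the genes were known and are used only to order the account. Among the 4381 eligible genes, a further 511 (11.7%) were at or under 40% in some wild-type libraries but not in all.

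**Figure D1:**
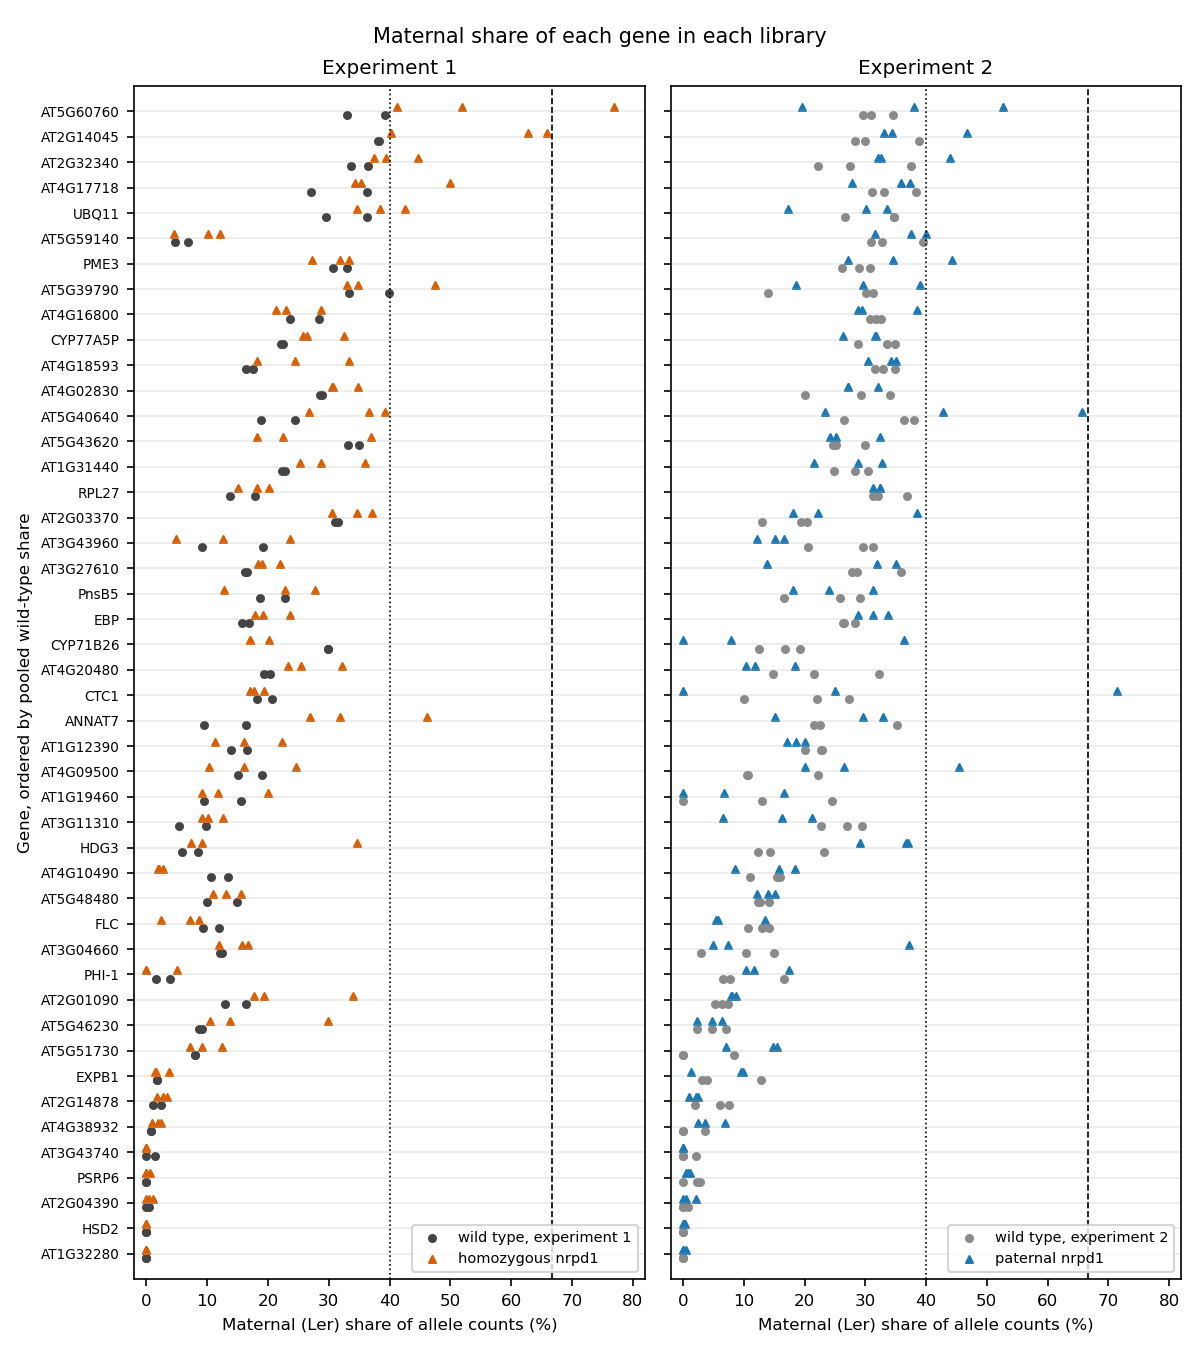
Maternal share of allele-assigned counts (%, x axis) of each of the 46 genes (y axis, ordered by pooled wild-type share), with 1 point per library; the left panel shows experiment 1 and the right panel experiment 2, circles stand for wild type and triangles for mutants, the dotted line marks 40% and the dashed line 66.67%. Most triangles lie beside the circles of the same gene, and 34 genes stay at or under 40% in all 11 libraries.

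HDG3, a homeodomain transcription factor known as a paternally expressed imprinted gene of endosperm, was the single member of a list of 26 known paternally expressed loci. It was also the only locus of that list that met the count minimum outside the deposited list, and the others were not analysed further here. HDG3 lies on chromosome 2, 13740878 to 13746286 (TAIR10.1), and its maternal share measured 5.85% and 8.47% in wild type of experiment 1, against 12.3%, 14.3% and 23.2% in wild type of experiment 2. Its share in homozygous nrpd1 was 7.28%, 34.6% and 9.09%, where the second value rests on 26 allele counts. In paternal nrpd1 it was 29.1%, 37.0% and 36.7%. The 3 paternal nrpd1 libraries all lay above the 3 wild-type libraries of their experiment, whereas in experiment 1 homozygous replicates 1 and 3 lay within or just above the wild-type range and replicate 2 far above it.

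In experiment 2 the alleles of HDG3 were counted as follows. Paternal Col counts were 3.53, 6.67 and 6.12 CPM in wild type, against 2.19, 1.34 and 3.64 CPM in paternal nrpd1, while maternal Ler counts were 0.494, 1.12 and 1.85 CPM, against 0.898, 0.787 and 2.11 CPM. Col counts were thus lower in 2 of the 3 mutant libraries than in any wild-type library, while Ler counts overlapped. The Col change was -1.07 on the log2 scale (SE 0.36), the Ler change 0.28 (SE 0.47) and the change of the Ler to Col ratio 1.37 (SE 0.34), all given as descriptions because the wild-type side of this contrast chose the gene. Total HDG3 expression was 66.0, 93.3 and 94.7 CPM in wild type, against 30.5, 24.9 and 69.1 CPM in paternal nrpd1, which overlapped through 1 library, and the difference did not pass the test (log2 -0.95, SE 0.33, edgeR adjusted p = 0.616). The 10 endosperm markers, HDG3 among them, summed to 209, 371 and 333 CPM in wild type, against 213, 116 and 220 in paternal nrpd1, and their part in the HDG3 values was not tested.

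FLC, a MADS-box repressor of flowering, and ANNAT7, an annexin that binds membranes with calcium, lie 30049 bases apart on chromosome 5. The Ler allele of FLC is known to be weakly expressed, with a transposon inside an intron. FLC (3173382 to 3179448) had maternal shares of 11.9% and 9.35% in wild type of experiment 1, against 7.18%, 8.70% and 2.42% in homozygous nrpd1. Its shares in experiment 2 were 10.7%, 12.9% and 14.2% in wild type, against 13.4%, 5.45% and 5.83% in paternal nrpd1. All 3 homozygous libraries were below both wild-type libraries, and in experiment 2 the groups overlapped. Maternal Ler counts of FLC were 1.09 and 1.20 CPM in wild type, against 0.836, 0.753 and 0.288 CPM in homozygous nrpd1, and paternal Col counts were 8.01 and 11.6 CPM, against 10.8, 7.91 and 11.6 CPM. The Ler values were lower in every mutant library and the Col values overlapped. FLC overlaps AT5G01675 on the opposite strand over 512 bases of transcript, so its counts are uncertain where strand was not used.

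ANNAT7 (3209497 to 3211483) had the largest positive difference of the 46 genes in homozygous nrpd1. Its maternal share was 9.40% and 16.4% in wild type, against 31.9%, 46.2% and 26.8% in homozygous nrpd1, a difference of 22.1 percentage points between means. The counts behind these shares were 149 and 61 in wild type, against 69, 13 and 82 in the mutant. In experiment 2 it was at 21.6%, 35.2% and 22.5% in wild type, against 15.2%, 29.6% and 32.8% in paternal nrpd1, so the groups overlapped there. Paternal Col counts of ANNAT7 were 7.73 and 2.66 CPM in wild type of experiment 1, against 2.81, 0.440 and 2.88 CPM in homozygous nrpd1, and these overlapped.

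Genes around FLC and ANNAT7 also had low shares in experiment 1. Other genes within 100 kb of FLC had a median maternal share of 27.9% (9 genes, 19.6% to 32.1%) in wild type of experiment 1, and those around ANNAT7 27.5% (12 genes). In homozygous nrpd1 these medians were 33.7% and 34.3%. The same genes had medians of 67.1% and 67.3% in wild type of experiment 2, against 69.0% and 68.8% in paternal nrpd1. Of the 45 genes with at least 3 measured neighbours, the other 43 had neighbour medians between 56.9% and 72.2% in wild type of experiment 1, and all 45 had medians between 60.3% and 73.7% in wild type of experiment 2. In wild type of both experiments FLC and ANNAT7 lay below every one of their own neighbours, whose shares were 19.6% to 32.1% in experiment 1 and 55.2% to 87.8% in experiment 2. The higher share of ANNAT7 in homozygous nrpd1 went with a higher median of its neighbours, and the part of the region in it was not tested.

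**Figure D2:**
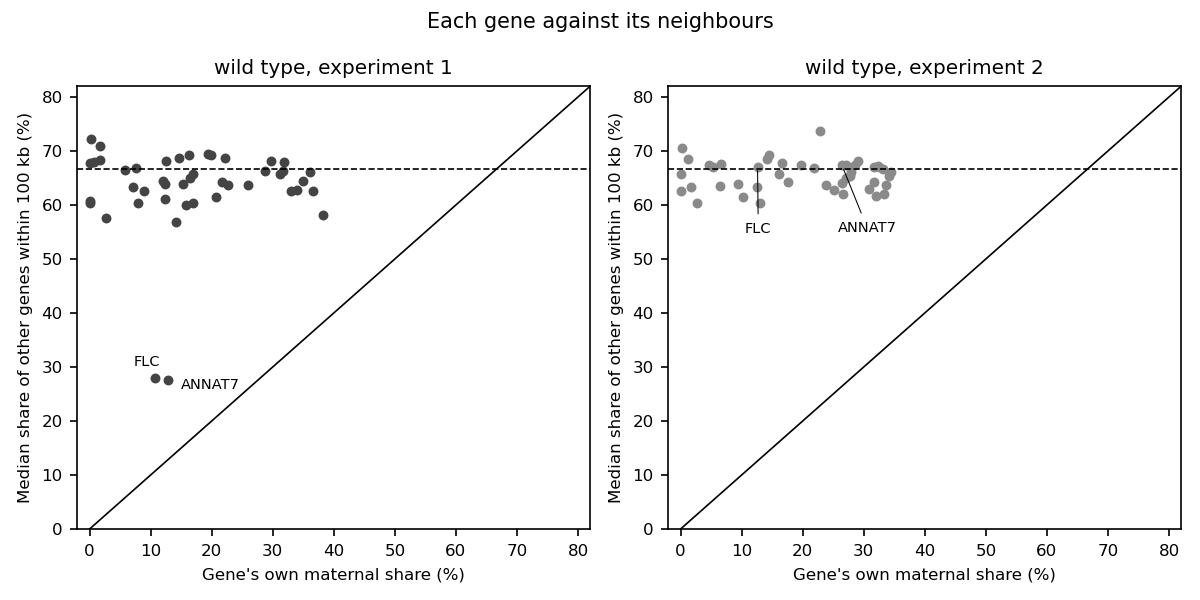
Mean maternal share of each gene in wild type (%, x axis) against the median share of the other measured genes within 100 kb (%, y axis), for the 45 genes with at least 3 such neighbours in experiment 1 (left) and experiment 2 (right); the dashed line marks 66.67% and the diagonal equal values. In experiment 1 the points of FLC and ANNAT7 stand alone with neighbour medians of 27.9% and 27.5%, and in experiment 2 they lie among the others.

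EBP, an ethylene-responsive transcription factor, had the most allele-assigned counts of any member, so its shares carry the least counting error. EBP (chromosome 3, 5705541 to 5707084) had maternal shares of 16.9% and 15.7% in wild type, against 19.2%, 23.7% and 17.9% in homozygous nrpd1 on 11585 to 17530 allele counts per library. Shares in experiment 2 were 28.3%, 26.4% and 26.4% in wild type, against 31.3%, 28.7% and 33.7% in paternal nrpd1. Every mutant library was above every wild-type library of its experiment, by 3.93 and 4.18 percentage points between means. Col counts were 820.1 and 770.1 CPM in wild type, against 559, 555 and 681 CPM in homozygous nrpd1, without overlap, while Ler counts of 167 and 144 CPM overlapped with 133, 172 and 149 CPM. In experiment 2 both alleles of EBP overlapped between the groups. In 3 libraries the allele counts of EBP summed to more than its deposited total, as did those of AT2G01090, AT3G43960 and AT5G39790 in 5, 3 and 3 libraries, and they were used as deposited. The wild types themselves differed more than the mutants did from them, with 10.7 points between the means of the experiments.

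Among the other regulators, AT3G11310, a Myb/SANT-like protein gene, had shares of 26.9%, 22.7% and 29.5% in wild type of experiment 2, against 21.2%, 6.67% and 16.4% in paternal nrpd1, without overlap. AT3G11310 had only 26, 88 and 61 allele counts in these wild-type libraries, against 52, 45 and 55 in paternal nrpd1. In experiment 1 it was at 5.30% and 9.87% in wild type, against 9.21%, 12.6% and 10.05% in homozygous nrpd1, which overlapped. CTC1, a component that protects telomere ends, had 18.2% and 20.7% in wild type, against 19.3%, 17.6% and 17.0% in homozygous nrpd1. In paternal nrpd1 its shares of 0%, 25.0% and 71.4% rest on 9, 16 and 21 allele counts, too few to place it. CTC1 and AT4G09500 lie 96940 bases apart on chromosome 4.

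AT4G10490, a 2-oxoglutarate and iron-dependent oxygenase gene on chromosome 4, 6483867 to 6485360, had the largest decrease in maternal counts of the 46 in homozygous nrpd1. Of its allele counts, 85 of 806 and 128 of 957 were maternal in wild type, or 10.5% and 13.4% (Wilson 95% intervals 8.61% to 12.9% and 11.4% to 15.7%). In homozygous nrpd1, 11 of 572, 13 of 485 and 15 of 731 were maternal, or 1.92%, 2.68% and 2.05%, with no interval reaching above 4.53%. Shares in experiment 2 were 11.0%, 15.5% and 15.9% in wild type, against 8.55%, 15.7% and 18.5% in paternal nrpd1. The homozygous libraries were thus the only ones of the 11 below 8.55%, and paternal nrpd1 overlapped with its wild type. These intervals cover counting error only.

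Maternal Ler counts of AT4G10490 were 4.86 and 6.67 CPM in wild type, against 0.657, 0.816 and 0.721 CPM in homozygous nrpd1, and paternal Col counts were 41.3 and 43.2 CPM, against 33.5, 29.6 and 34.4 CPM. Both alleles were lower in every homozygous library, with a change of the Ler allele of -2.94 (SE 0.25) and of the Col allele of -0.35 (SE 0.15) on the log2 scale, and the ratio moved by -2.58 (SE 0.28). The rule used the wild-type shares, so these changes are given with no test. Total AT4G10490 expression was 97.2 and 112 CPM in wild type, against 73.7, 61.9 and 70.5 CPM in homozygous nrpd1, without overlap. That difference did not pass edgeR's test (log2 -0.57, SE 0.10, adjusted p = 0.146) and passed DESeq2's (adjusted p = 0.000987), over a range of 0.000987 to 1 across its alternatives. Its 9 neighbours within 100 kb had a median share of 64.5% in wild type and 69.8% in homozygous nrpd1, with none under 53.4% in the mutant.

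**Figure D3:**
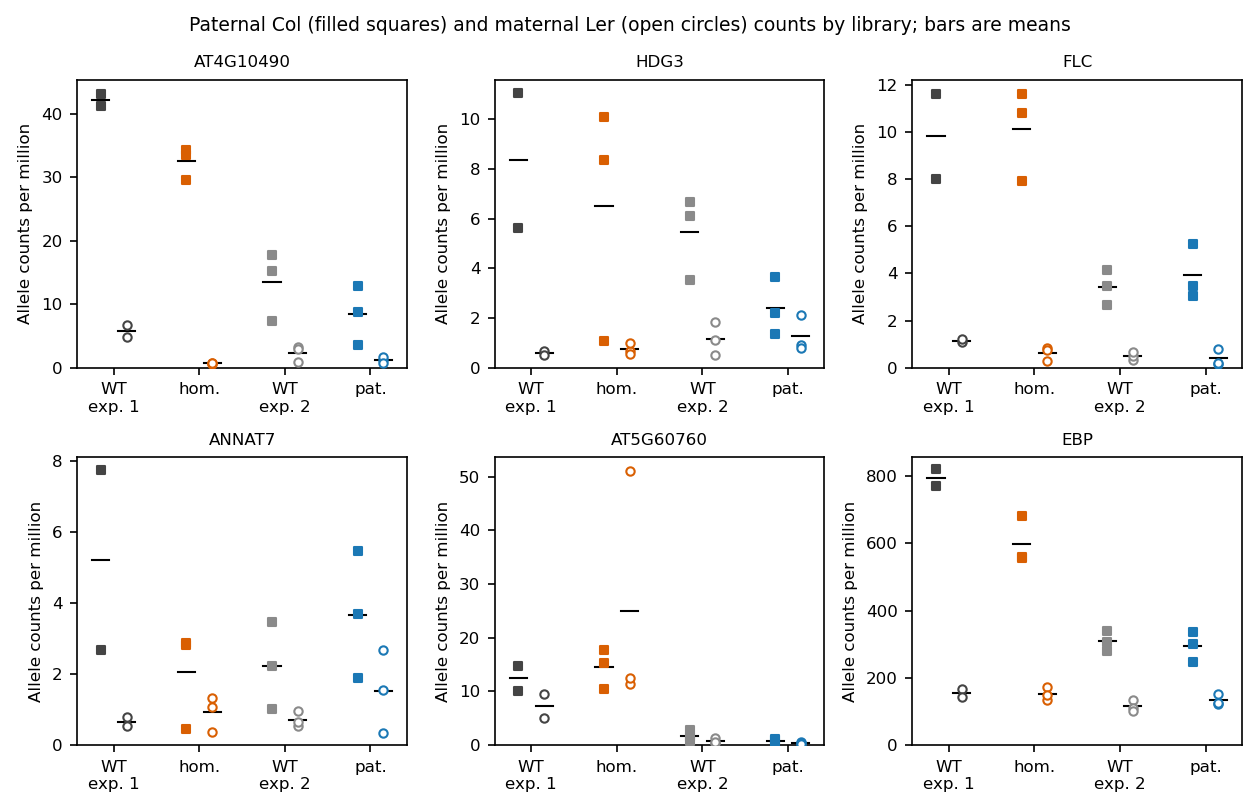
Paternal Col counts (filled squares) and maternal Ler counts (open circles) as CPM (y axis, linear) for 6 genes in wild type (WT) of each experiment (exp.), homozygous (hom.) and paternal (pat.) nrpd1, with 1 point per library and bars at the means. AT4G10490 has Col counts of 29.6 to 34.4 CPM in homozygous nrpd1 while its Ler counts are at 0.657 to 0.816 CPM, and AT5G60760 has 1 homozygous library at 51.1 CPM of Ler counts.

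HSD2, a hydroxysteroid dehydrogenase gene, had 0 maternal counts in every experiment 1 and wild-type library. Pooled over libraries, 0 of 263 counts in wild type of experiment 1 allow a share of up to 1.14%, 0 of 275 in homozygous nrpd1 up to 1.09% and 0 of 991 in wild type of experiment 2 up to 0.303%. In paternal nrpd1, 3 of 1625 were maternal. Almost all allele counts of HSD2 were thus Col in every group. Of the cytochrome P450 genes, CYP71B26 had shares of 29.8% and 29.8% in wild type, against 20.2%, 17.0% and 17.0% in homozygous nrpd1, without overlap. CYP77A5P, whose product is annotated as a pseudogene, ranged from 22.1% to 34.9% over the wild-type libraries. In experiment 2 CYP71B26 was at 12.5%, 16.8% and 19.2% in wild type, against 0%, 36.4% and 7.87% in paternal nrpd1, the last group resting on 18, 11 and 89 allele counts. The glycosyltransferase gene AT4G09500 had 10.7%, 10.5% and 22.2% in wild type, against 20%, 45.5% and 26.5% in paternal nrpd1, which overlapped.

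Genes of protein synthesis included some of the most one-sided members. AT2G04390, annotated as a ribosomal S17 family protein, had 1 of 209 and 0 of 263 maternal counts in wild type of experiment 1, against 2 of 198, 0 of 123 and 1 of 220 in homozygous nrpd1. PSRP6, a plastid ribosomal protein, had 0 of 472, 3 of 130 and 3 of 109 in wild type of experiment 2, against 1 of 231, 5 of 418 and 2 of 220 in paternal nrpd1. Neither gene passed 2.75% in any of the 11 libraries. Allele-assigned counts were only 5.71% of the wild-type total of PSRP6 and 6.33% of that of AT2G04390, so their shares are uncertain. AT2G04390 shares a stretch of 442 bases at 96.4% identity with AT5G04800, so its counts could be split between the copies. RPL27, a protein of the plastid ribosome's large subunit, was more balanced, at 17.8% and 13.8% in wild type of experiment 1, against 32.0%, 31.3% and 36.8% in experiment 2. The mutant shares of RPL27 were 14.99%, 20.2% and 18.1% in homozygous and 32.5%, 31.2% and 32.5% in paternal nrpd1, each overlapping its wild type. AT5G51730, an RNA-binding protein gene, stayed at or under 15.5% everywhere, AT4G20480 ranged from 10.3% to 32.3%, and AT5G43620, a pre-mRNA cleavage factor gene, from 18.2% to 37.0%.

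At the cell wall, EXPB1, an expansin that loosens walls, had shares of 1.74% and 1.80% in wild type, against 1.43%, 1.61% and 3.67% in homozygous nrpd1, and in experiment 2 had 12.8%, 3.95% and 3.09% in wild type, against 1.32%, 9.92% and 9.52% in the mutant. All 11 libraries were under 13% and the groups overlapped. PME3, a pectin methylesterase, kept 26.1% to 32.99% in the wild-type libraries and reached 27.2%, 34.5% and 44.2% in paternal nrpd1. AT1G32280, a lipid-transfer family gene, had 0 of 191 maternal counts in wild type of experiment 1, which allows up to 1.57%, 0 of 194 in homozygous nrpd1 and 0 of 625 in wild type of experiment 2. A single maternal count of 669 was found in paternal nrpd1. The leucine-rich repeat gene AT3G43740 had at most 1 maternal count in any library, PHI-1, a phosphate-responsive family gene, was under 18% in all, and the defensin-like gene AT4G17718 lay between 27.1% and 50%.

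AT3G04660, an F-box gene, and AT1G19460, a kelch repeat gene, stayed at or under 37.2% and 24.5%, on 10 to 74 allele counts per library. UBQ11, a polyubiquitin gene, was at 29.5% and 36.4% in wild type of experiment 1, against 38.4%, 42.5% and 34.7% in homozygous nrpd1, and at 26.6%, 34.7% and 34.8% in wild type of experiment 2, against 33.6%, 17.3% and 30.2% in paternal nrpd1. Allele-assigned counts were 4.80% of its total, and ubiquitin genes share sequence with one another, so its shares are uncertain. AT5G59140, a BTB/POZ domain gene, differed more between the wild types than any other member, with 6.90% and 4.69% in experiment 1 and 39.5%, 30.9% and 32.8% in experiment 2. The mutants lay near their own wild types, with 4.55%, 12.1% and 10.2% in homozygous and 37.5%, 40.0% and 31.6% in paternal nrpd1. Allele-assigned counts were 6.3% of the wild-type total of AT5G59140, so its shares are uncertain too. AT3G43960, a cysteine proteinase gene, was at 29.5%, 20.6% and 31.3% in wild type, against 16.7%, 12.2% and 15.2% in paternal nrpd1 and was the gene with the largest negative difference without overlap there. In experiment 1 it was at 19.1% and 9.09% in wild type, against 4.94%, 23.6% and 12.6% in homozygous nrpd1, which overlapped.

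Across all 46 genes the wild types of the experiments differed by a median of 1.18 percentage points, from -13.6 for CYP71B26 to 28.6 for AT5G59140. The kit, read length and stage differ between the experiments together, so their parts cannot be told apart.

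AT5G60760, a P-loop nucleoside triphosphate hydrolase gene, and AT2G14045, a gene for a c-Myc-binding protein, were above 40% in all 3 homozygous nrpd1 libraries. AT5G60760 was at 32.95% and 39.2% in wild type, against 51.9%, 76.9% and 41.3% in homozygous nrpd1. Its Ler counts were 4.98 and 9.49 CPM in wild type, against 11.3, 51.1 and 12.5 CPM in the mutant, and its Col counts were 10.1 and 14.7 CPM, against 10.5, 15.4 and 17.8 CPM. Ler counts were higher than wild type in all 3 mutant libraries, and most so in replicate 2, the library whose median share over all genes was highest (75.9%). AT2G14045 was at 38.3% and 38.1% in wild type, against 62.7%, 65.9% and 40.2% in homozygous nrpd1, on 59, 91 and 102 allele counts.

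In the mitochondrial and plastid group, AT2G01090, a gene for the hinge protein of respiratory complex III, had a higher share in the mutant without overlap in both experiments. It was at 12.9% and 16.4% in wild type, against 19.3%, 34.0% and 17.7% in homozygous nrpd1, and in experiment 2 at 7.48%, 6.45% and 5.34% in wild type, against 8.13%, 8.75% and 7.88% in paternal nrpd1. The second difference is 1.83 percentage points. AT2G01090 overlaps AT2G01100, so its counts are uncertain. AT5G48480, a glyoxalase family gene, kept 9.88% to 15.5% over all 11 libraries, but it lies across DIR1 on the opposite strand over 813 bases. AT3G27610, a nucleotidylyl transferase family gene, AT4G16800, a crotonase family gene, and AT2G03370, a glycosyltransferase-like gene, had highest shares of 35.8%, 38.5% and 38.5%. PnsB5, a subunit of the chloroplast NADH dehydrogenase-like complex, ranged from 12.8% to 31.2%, and AT5G39790, annotated as PROTEIN TARGETING TO STARCH, from 14% to 47.4%.

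The allele-assigned counts of the RNAs without a protein were almost all Col. AT4G38932 had 1 of 140 and 1 of 146 maternal counts in wild type of experiment 1, against 1 of 101, 3 of 124 and 4 of 213 in homozygous nrpd1, and AT2G14878 had 2.45% and 1.09% in wild type, against 2.67%, 3.30% and 1.67%. In experiment 2 AT4G38932 reached at most 6.98% and AT2G14878 at most 7.56%. Of the genes without a known function, AT5G46230 was at 8.59% and 9.20% in wild type, against 13.7%, 29.9% and 10.5% in homozygous nrpd1, above wild type in all 3 libraries, while in experiment 2 it was at 4.85%, 2.31% and 7.07% in wild type, against 2.29%, 6.49% and 4.79% in paternal nrpd1, which overlapped. AT5G40640 was at 24.4% and 18.9% in wild type of experiment 1, against 36.6%, 39.3% and 26.7% in homozygous nrpd1. Its shares in experiment 2 were 26.5%, 37.9% and 36.4% in wild type, against 65.6%, 42.9% and 23.3% in paternal nrpd1. Its allele counts are 1.39% of its total and the gene overlaps AT5G40645, so these shares are uncertain. AT4G02830, an uncharacterized gene, stayed between 20.1% and 34.8%, and AT2G32340, a TraB family gene that ends 6344 bases before HDG3, ranged from 22.2% to 44.6%.

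Among trafficking and signalling genes, AT1G31440, an SH3 domain gene, was at 22.8% and 22.4% in wild type of experiment 1, against 28.7%, 35.9% and 25.3% in homozygous nrpd1, and its groups overlapped in experiment 2. AT4G18593, a phosphatase-like gene, was at 16.3% and 17.5%, against 24.4%, 18.2% and 33.3%, and reached 34.97% in experiment 2. AT1G12390, a cornichon family gene, ranged from 11.2% to 22.8% over all libraries, and shares 623 bases at 97.4% identity with AT1G12340 and overlaps AT1G12400.

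Most members lay apart from one another. Pairs within 100 kb were AT2G32340 with HDG3, AT4G09500 with CTC1, FLC with ANNAT7 and AT5G43620 with PnsB5 (55864 bases), and no run of 3 was found. Chromosomes 1 to 5 held 5, 8, 10, 10 and 13 of them, and 697, 550, 1014, 815 and 1259 of the other 4335 eligible genes. Of the 46 genes, 5 (10.9%) overlapped another annotated gene, against 1330 (30.7%) of the other 4335 eligible genes, and their median exon length was 1358 bases against 1700. Allele-assigned counts were a median of 31.2% of a member's total and 17.2% of the other genes' totals.

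Whether the paternal excess was also met in mutant endosperm was tested in the mutant libraries alone, which the rule did not use. In homozygous nrpd1, all 46 genes lay below 66.67% (edgeR, each adjusted p at most 0.0476), a test that 12.7% of 8396 genes passed in this direction. In paternal nrpd1, 44 of the 45 genes that could be tested lay below it, where 8.25% of 7203 genes passed in this direction. Measured neighbours of FLC and ANNAT7 within 100 kb also had mean shares of only 29.1% to 40.2% in homozygous nrpd1. For FLC and ANNAT7 the homozygous result is therefore not particular to the gene. The median log2 ratio of Ler to Col against 2 to 1 was -3.20 in homozygous and -2.67 in paternal nrpd1, and over all genes it was 0.36 and 0.09. HDG3 was at -3.98 (SE 0.32, adjusted p = 3.91e-21) and -1.94 (SE 0.25, adjusted p = 0.000106). AT4G10490 was at -6.46 (SE 0.27) and -3.70 (SE 0.24).

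AT5G40640 did not pass in paternal nrpd1 (log2 -1.45, SE 0.57, adjusted p = 0.110), and it passed without replicate 1 (adjusted p = 0.00751). CTC1 had too few allele counts there to be tested. In homozygous nrpd1 the weakest calls were AT2G14045 (log2 -0.67, SE 0.28, adjusted p = 0.0476) and AT5G60760 (log2 -0.55, SE 0.23, adjusted p = 0.0421). Both were lost without homozygous replicate 1 (adjusted p = 0.149 and 0.555) or replicate 3 (0.792 and 0.922), in DESeq2 (0.356 and 0.539) and with genes averaging 10 or more allele counts (0.0528 and 0.0534). In paternal nrpd1, AT5G60760 and AT2G03370 were lost without replicate 3 (0.244 and 0.0665), and AT4G09500 without replicate 1 or 3 (0.0537 and 0.161).

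The 40% limit itself was kept in every homozygous library by 39 genes, where 3.64% of 8374 genes were at or under it, and in every paternal nrpd1 library by 38, where 1.88% of 7334 were. In all 11 libraries, 34 genes kept it and 44 stayed under 66.67%. Just inside the limit in wild type were AT5G39790, AT5G59140 and AT5G60760, with highest shares of 39.8%, 39.5% and 39.2%. Just outside were CRA1, a cruciferin seed storage protein, at 40.7%, HYD1, a sterol isomerase, at 41.0% and AT3G25280, a transporter family gene, at 41.1%.

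Set against wild type, the maternal share was higher in homozygous nrpd1 for most of the 46 genes, as it was over all genes. The median over members per library was 16.0% and 16.3% in wild type, against 19.1%, 21.2% and 16.5% in the mutant, so all 3 mutant libraries were higher but replicate 3 by under 1 point. The difference of means was positive for 34 genes, negative for 10 and 0 for the others, with a median of 1.7 percentage points, while over all 8387 genes the median was 4.41. Taken relative to each library's median share over all genes, the members' median difference turned to -2.99 points. On the log2 scale of the Ler to Col ratio, the median was 0.34 for members and 0.33 for all genes. Col counts changed by a median of -0.21 and Ler counts by 0.06 for members, against -0.28 and 0.05 over all genes. Replicate 2 held the highest share of the 3 mutant libraries for 31 of 43 members (72.1%) and for 71.8% of all genes. Without replicate 2 the members' median difference was 0.746 points. Seed coat markers summed to 1183, 874 and 781 CPM in homozygous replicates 1 to 3, against 818 and 800 CPM in wild type. The 10 endosperm markers summed to 356, 201 and 348 CPM in the same libraries, against 356 and 305 CPM in wild type. The part of either set in the shares was not tested.

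No library of homozygous nrpd1 overlapped with wild type for 18 members. In 15 of them every mutant library was above wild type, where 31.5% of all genes were, and in AT4G10490, CYP71B26 and FLC every mutant library was below, where 1.43% were. The rule used the wild-type side of this contrast, so nothing is read from these counts. The largest differences among the 15 were those of ANNAT7, AT5G60760, AT2G14045, AT5G40640 and AT5G46230, by 22.1, 20.6, 18.1, 12.5 and 9.15 percentage points. The differences of the 3 genes below wild type were -11.7 for CYP71B26, -9.74 for AT4G10490 and -4.55 for FLC.

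In paternal nrpd1 the median share of members per library was 18.5%, 21.8% and 20.9%, against 20.2%, 22.4% and 22.4% in its wild type, and the groups overlapped. The difference was positive for 28 genes and negative for 18, with a median of 0.43 percentage points, while over all 7370 genes it was 0.917. Relative to each library's median share it turned to -0.661 points. The log2 ratio of Ler to Col changed by a median of 0.06 for members and 0.07 for all genes. Every mutant library was above wild type for HDG3, EBP and AT2G01090, where 7.54% of all genes were, and below for AT3G43960 and AT3G11310, where 3.67% were. HDG3 was 17.6 points higher, and AT3G43960 and AT3G11310 differed by -12.5 and -11.7. The rule used the wild-type shares here too, so nothing is read from these counts.

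**Figure D4:**
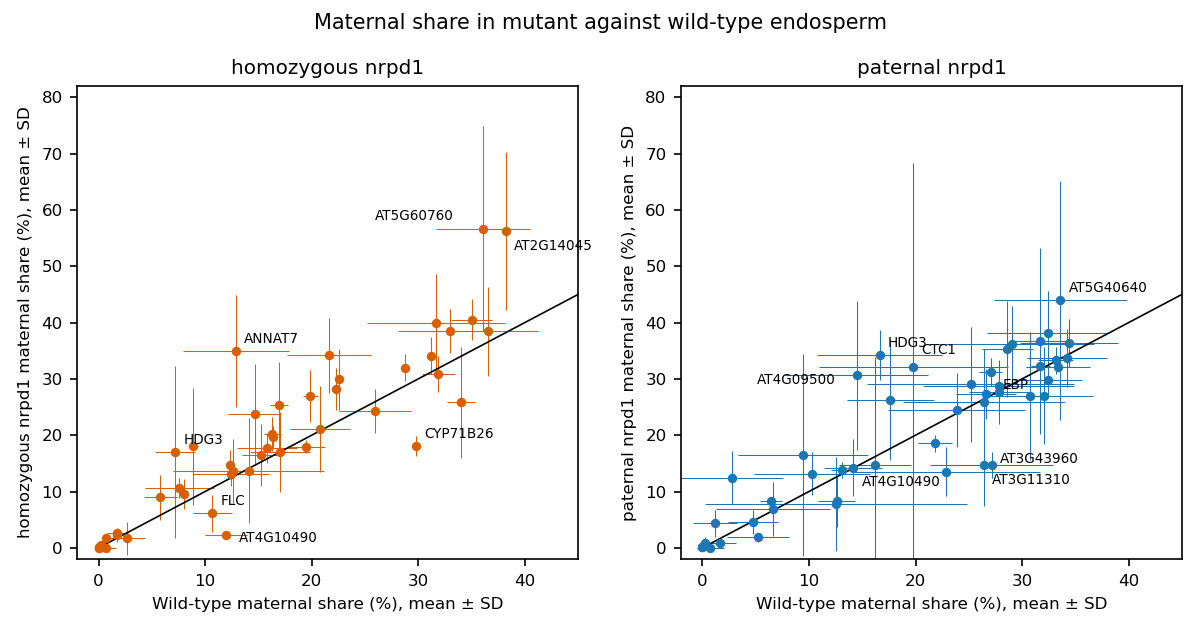
Mean maternal share (%) in mutant libraries (y axis) against wild type of the same experiment (x axis) for the 46 genes, homozygous nrpd1 on the left and paternal nrpd1 on the right; bars are SDs over 2 or 3 libraries and the line marks equal values. AT4G10490 lies below the line at 2.22% against 12.0% in the left panel, and HDG3 lies above it at 34.3% against 16.6% in the right panel.

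Total expression of these genes was a measure the rule used only through the count minimum. In homozygous nrpd1, 0 of the 46 passed edgeR's test, where 0.334% of 18570 features did, and 5 had an unadjusted p under 0.05. Log2 changes were positive for 19 and negative for 27 genes, with a median of -0.09 against 0.00 over all features, and ranged from -0.80 to 1.17. In paternal nrpd1, 0 of the 46 passed, as did 0% of 18901 features, 2 had an unadjusted p under 0.05, and the median was 0.16 against 0.01 (28 positive, 18 negative). DESeq2 called 1 member, AT4G10490, in homozygous and 0 in paternal nrpd1. How far the mutants' effects differed was tested as an interaction, which passed for 0 of 46 genes and 0% of 20078 features, and 3 members had an unadjusted p under 0.05. Among members the smallest adjusted p of this difference was 0.594. By product group, median log2 changes of the total lay between -0.31 for the oxygenases and other enzymes and 0.15 for the RNAs without a protein in homozygous nrpd1, and between -0.23 for the regulators and 0.61 for trafficking and signalling in paternal nrpd1.

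Single genes with separated libraries are given as values. PnsB5 was at 8.64 and 7.87 CPM in wild type, against 5.61, 3.52 and 4.80 in homozygous nrpd1 (log2 -0.80, SE 0.21, edgeR adjusted p = 0.294). In experiment 2 it was at 18.9, 16.8 and 14.5 CPM in wild type, against 24.2, 25.7 and 20.04 CPM in paternal nrpd1 (log2 0.61, SE 0.38, adjusted p = 0.633). HSD2 was at 17.1 and 18.4 CPM in wild type, against 15.6, 10.4 and 16.0 CPM in homozygous nrpd1, and in experiment 2 at 105, 67.1 and 94.0 CPM, against 145, 112 and 110.4 CPM in paternal nrpd1. Both genes were lower in every homozygous library and higher in every paternal nrpd1 library, and for neither did the difference between the mutants pass the test. PHI-1 was at 31.4, 45.3 and 38.2 CPM in wild type, against 15.2, 18.7 and 19.2 CPM in paternal nrpd1, and CTC1 at 1.69, 5.56 and 2.46 CPM, against 0.786, 1.20 and 1.44 CPM, both lower without overlap. Every homozygous library was lower in total CPM for 10 members, where 19.7% of features were, and higher for 2, where 13.2% were. Every paternal nrpd1 library was lower for 2, where 2.58% were, and higher for 5, where 6.27% were.

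The libraries of experiment 2 varied in ways that crossed genotype. Over the tested features, wild-type replicate 1 and paternal nrpd1 replicate 2 deviated from their group means together (correlation 0.66 over features of the same libraries, a description). Among members, PSRP6 was at 324, 87.2 and 99.0 CPM in wild type, against 135, 269 and 145 CPM in paternal nrpd1. AT1G32280 was at 142, 34.3 and 60.6 CPM, against 55.6, 114 and 59.8 CPM, and AT5G59140 at 225, 84.8 and 111 CPM, against 94.8, 231 and 137 CPM. In each of these the same 2 libraries were the highest of their groups, and leaving out any single library of experiment 2 gave 0 members called.

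**Figure D5:**
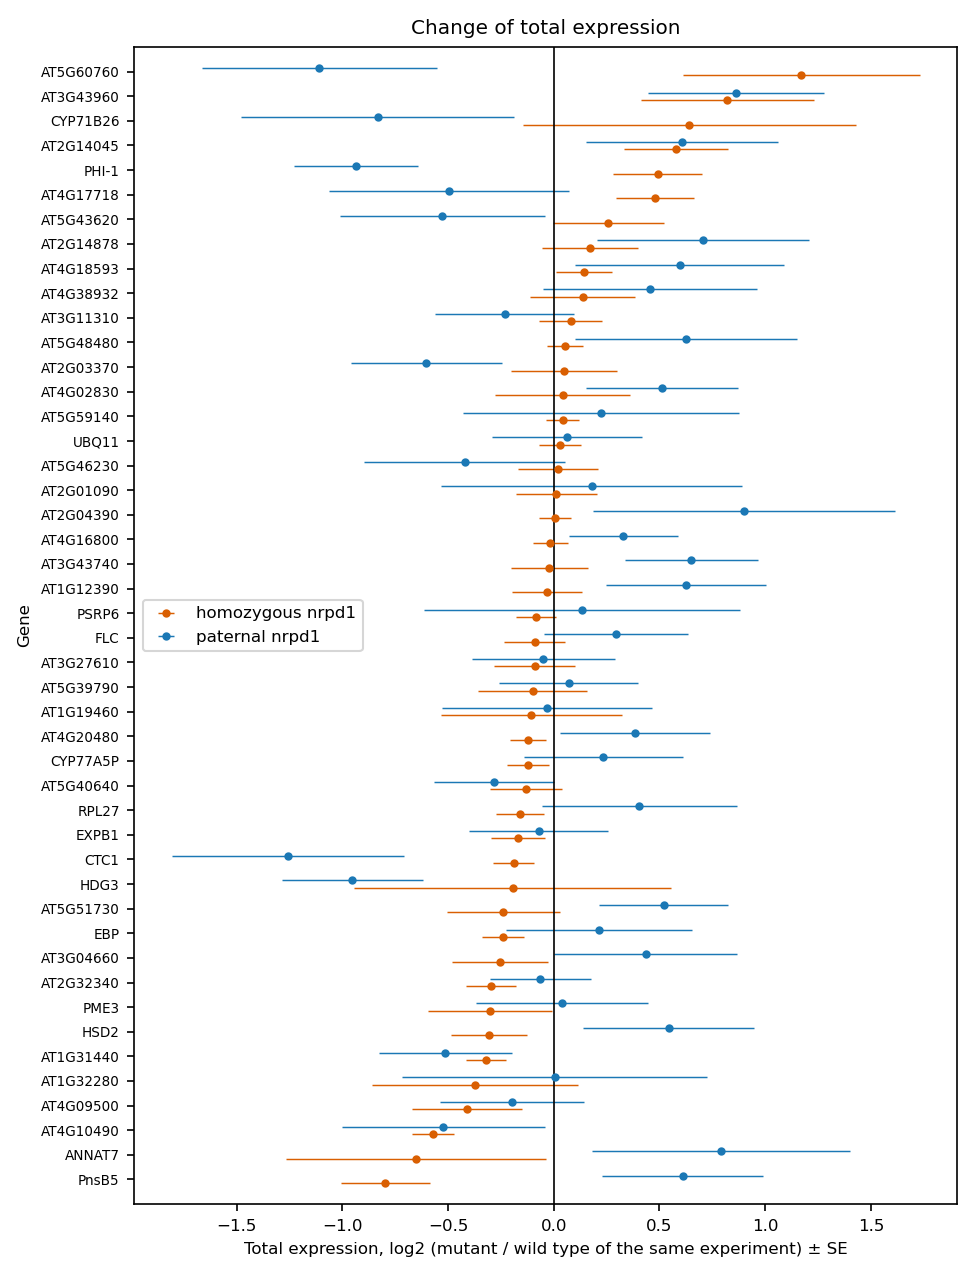
Change of total expression of the 46 genes (y axis) as log2 of mutant over wild type of the same experiment (x axis) with standard errors from the fit of all features, for homozygous (orange) and paternal (blue) nrpd1. The homozygous values lie between -0.80 for PnsB5 and 1.17 for AT5G60760, and no gene passes the adjusted threshold in either mutant.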

How the data were processed

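The authors deposited raw counts per gene and library, as a total and as Col-assigned and Ler-assigned reads, and a list of 5081 genes named for Col and nrpd1. TopHat, HTSeq, cutadapt, Trim Galore, FastQC and the TAIR10 build are named in the submitters' processing notes, without versions. How reads were assigned to alleles and whether strand was used is not given in the sources used here. Per the labels, experiment 1 used 15 amplification cycles and paired reads of 100 bases, and experiment 2 used 12 cycles and single reads of 40 bases. The 5 summary lines of each experiment 2 table (11.6% to 13.3% of counts) were left out.

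The members, gene lists and groups were chosen with earlier results of these data known. Total counts were tested in edgeR 4.0.16 (R 4.3.3; TMM, filterByExpr, quasi-likelihood test, two-sided, Benjamini-Hochberg over all features, threshold 0.05), per experiment, with the mutants' difference as an interaction over 11 libraries. Ler and Col counts of the mutant libraries alone were tested in edgeR against 2 to 1, over genes averaging 20 or more allele counts per library, without the listed genes in experiment 1. Changes of share, Col and Ler counts come from the same kind of fit and are descriptions. CPM is relative to all total counts of a library. The fits were tested on simulated data. DESeq2 1.42.0 was an alternative, beside other filters, limits, pairings and left-out libraries. Positions, products and sequences come from the RefSeq annotation of TAIR10.1; near-identical stretches (at least 95% over 100 bases) were found with BLAST 2.17.0. The files hold no coordinates.

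The genes named in full are the known imprinted gene, the 10 with the lowest pooled wild-type share, the 10 with the most total CPM (not corrected for length), the 5 with the most higher and the 5 with the most lower share without overlap in each mutant, those not below 2 to 1 in mutant libraries and those beside the 40% limit. Others stand in ranges.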

Additional observations from a re-analysis of the deposited data

How the results depend on the processing

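The rule gave 46 genes. It gave 118 with a limit of 50%, 562 with the wild type of experiment 1 alone and 77 with that of experiment 2 alone, and in each of these all 46 were kept; leaving out 1 wild-type library gave 49 to 63. Members below 66.67% numbered 44 to 46 of 46 tested in homozygous nrpd1, and 40 of 44 (without paternal replicate 3) to 44 of 45 or 46 in paternal nrpd1; with a mean of at least 50 allele counts all 40 and all 38 members tested were below. In homozygous nrpd1, 43 features were higher and 19 lower in total expression; 1 fit of all 11 libraries gave 6 and 6, DESeq2 365 and 151, and leaving out 1 library 0 to 32 and 0 to 12, with 0 of each without either wild-type library, 4 and 2 without homozygous replicate 1, 12 lower without replicate 2 and 3 lower without replicate 3. Members called were 0 under every alternative run except DESeq2 in homozygous nrpd1, with 1. In paternal nrpd1, where 0 features passed, DESeq2 gave 5 higher and 11 lower and 1 fit of all 11 libraries gave 1 lower. For the difference between the mutants, DESeq2 gave 83 higher and 14 lower, and leaving out 1 library gave 0 to 1 lower, the 1 without paternal replicate 2. The median change of share in homozygous nrpd1 was 1.7 points and -2.99 relative to each library's median share. The log2 ratio of Ler to Col changed by a median of 0.34 for members and 0.33 for all genes, and the cause was not tested. Leaving out 1 library gave a median change of share of 0.746 points (without homozygous replicate 2) to 3.35 (without replicate 1) there. In paternal nrpd1 it was 0.43 points, -0.661 relative to each library's median share, and -0.507 (without paternal replicate 3) to 1.47 (without replicate 1), with 0.0192 without replicate 2 and 1.24 without wild-type replicate 2.

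With the replicate number as a block, 262 features were higher and 60 lower in homozygous nrpd1, in a fit that also leaves out homozygous replicate 3, whose number has no wild-type partner (31 and 3 without it and without the block). The block changed no other count and no call of a member. Same-numbered libraries deviated together by 0.21 and 0.32 in experiment 1, where only 2 pairs exist, and by -0.46, -0.63 and 0.11 in experiment 2. In experiment 1 the 2 wild-type libraries deviate as mirror images of each other. Homozygous replicate 3 also gave 0.22 with wild-type replicate 1, so these values cannot decide whether the numbers pair the samples there. In experiment 2 the same-numbered libraries did not deviate together as a set. Shares of members with few allele counts, such as CTC1 in paternal nrpd1 with 9 to 21 per library, could not be placed at this depth.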
